A study of Mus musculus with 10 samples.

Results

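The nuclear genes for the subunits of the mitochondrial respiratory chain and ATP synthase were described in mouse embryonic stem cells. Members were the genes whose symbol begins with Nduf and a letter of the complex I series, is Sdha, Sdhb, Sdhc or Sdhd, or begins with Uqcr, Cox4 to Cox8 or Atp5, pseudogene names left out, with a mean of at least 10 normalized counts over 7 libraries. Of 90 such names, 83 met the minimum, among 15240 genes that met it and 54456 in the table. They comprised 39 genes of complex I, 4 of complex II, 8 of complex III, 15 of complex IV and 17 of complex V. The 7 that did not meet the minimum were Cox6a2, Cox6c2, Cox8b, Cox8c, Ndufa11b, Ndufb4c and Ndufs6b, and Cox8b was at 0 in every library.

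The study rewrote the mouse Taf1 locus with human sequence carrying SVA retrotransposons, the kind of insertion behind X-linked dystonia parkinsonism. All cells were C57BL/6J embryonic stem cells grown on gelatin in serum with LIF and inhibitors of GSK3 and MEK, and RNA was sequenced after ribosomal RNA depletion. The converted groups were conv-dSVA_F&D, conv-dSVA_F and conv-dSVA_D, with 2 libraries each, and the line they are set against, MK6, is labelled wild type and has 1 library. Each converted line carries a loxP site in a Taf1 intron, a humanized Taf1 allele labelled mousified and converted, and the landing-pad entry LPSwapinRed_pUC19 at Taf1, and its label also lists pSpCas9, pSpCas9GFP and pCAGiCre as null entries. The labels add SVAdel in conv-dSVA_F, dSVA2 in conv-dSVA_D and both terms in conv-dSVA_F&D, for the SVA elements deleted. Each genotype has a single line name and no clone is given, which leaves genotype and clone impossible to tell apart. Nothing says whether the libraries of a line were grown apart, and p-values then reflect only how far these samples differ, possibly for technical reasons. The pre-conversion stem cell library and the striatal libraries were not analysed here.

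Complex I (NADH dehydrogenase) and complex II (succinate dehydrogenase) pass electrons to ubiquinone, complex III passes them on to cytochrome c, and complex IV (cytochrome c oxidase) passes them to oxygen. Complexes I, III and IV pump protons across the inner mitochondrial membrane, and complex V (ATP synthase) lets them back to make ATP. A few core subunits are encoded in the mitochondrial genome and the rest, described here, in the nucleus, where NRF1, GABPA (an ETS factor), YY1 and estrogen-related receptors are known regulators of many of them. Pluripotent stem cells are known for making much of their ATP by glycolysis while keeping a functional chain.

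Promoter sequence was taken from RefSeq (GRCm38.p6), in which 68 of the 83 genes had an entry (73 entries). Each entry spans 250 bases before and 50 after a transcript start. Genes with none included Atp5a1, Atp5mpl, Cox4i1, Cox4i2, Cox6c, Ndufa2, Ndufa4l2, Ndufb11b, Ndufb9, Ndufs1, Sdhc, Uqcrb, Uqcrc2 and Uqcrq. Printed are the bases directly upstream of the outermost annotated start, up to the nearest annotated exon, for the 3 genes that passed a test below (Cox6b2, Ndufb10, Ndufb7), for Ndufb2, whose adjusted p lay just above the threshold, and for Sdha, the gene higher in every converted library than in the wild type. Capitals mark a match to one of the motifs spelled out below.
Cox6b2 (chr7:4753095-4753225, minus strand): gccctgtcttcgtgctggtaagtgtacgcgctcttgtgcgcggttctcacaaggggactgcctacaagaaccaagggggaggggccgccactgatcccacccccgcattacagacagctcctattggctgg
Ndufb10 (chr17:24724479-24724673, minus strand): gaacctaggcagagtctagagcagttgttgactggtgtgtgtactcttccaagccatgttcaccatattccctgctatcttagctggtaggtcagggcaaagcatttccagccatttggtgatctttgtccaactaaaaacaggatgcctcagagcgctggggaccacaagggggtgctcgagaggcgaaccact
Ndufb7 (chr8:83566508-83566670, plus strand): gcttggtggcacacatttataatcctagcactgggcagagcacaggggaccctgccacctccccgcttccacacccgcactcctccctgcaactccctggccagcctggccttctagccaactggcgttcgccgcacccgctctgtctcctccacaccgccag
Ndufb2 (chr6:39592365-39592564, plus strand): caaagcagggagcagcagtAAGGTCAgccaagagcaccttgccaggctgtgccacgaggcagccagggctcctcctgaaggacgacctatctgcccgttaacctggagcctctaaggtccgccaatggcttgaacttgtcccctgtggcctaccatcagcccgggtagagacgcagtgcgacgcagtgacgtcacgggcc
Sdha (chr13:74350281-74350308, minus strand): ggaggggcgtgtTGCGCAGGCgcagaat

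The capitals in Ndufb2 are the letters AAGGTCA of the estrogen-related receptor half-site, and those in Sdha the letters TGCGCANGC of the NRF1 core. The printed windows of Cox6b2, Ndufb10 and Ndufb7 held none of the motifs searched, while their whole entries held the SP1 motif in Cox6b2, the NRF1 core in Ndufb10 and the ETS core in Ndufb7. Over the whole entries and both strands, the NRF1 core occurred in 13 of the 73 promoters (17.8%), against 8.18% of 13871 promoters of tested genes and 4.16% of all 32851 in the table. The YY1 motif AAGATGGCG occurred in 7 (9.59%), against 2.81% of tested genes' promoters, and AAGGTCA in 8 (11.0%), against 3.38%. The ETS core CCGGAAG occurred in 17 (23.3%), against 16.9%, and the SP1 motif GGGCGGGG in 12 (16.4%), against 31.9%. A match is a string of letters and not a site shown to be bound.

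The libraries held 16588467 to 26562418 reads assigned to genes, so a gene at 0 in 1 library could still have had up to 3 reads, or 2.45 to 4.18 normalized counts. Such limits cover counting error only. All 14 embryonic stem cell markers were present in all 7 libraries, with Pou5f1 at 18394 to 24255 normalized counts. Of the 14, 5 were lower in every converted library than in the wild type (Pou5f1, Sox2, Dppa5a, Dppa4 and Tdgf1), against 19.0% of all tested genes. Another 3 were higher in every one (Esrrb, Utf1 and Tfcp2l1), against 18.8%. Against the wild type 0 passed with limma (6 at an unadjusted p under 0.05, against 18.7% of all tested genes), 0 with edgeR and 3 with DESeq2. Taf1, the edited gene, was at 1116 and 1088 normalized counts in conv-dSVA_F&D, 501 and 589 in conv-dSVA_F, 362 and 418 in conv-dSVA_D and 2898 in the wild type, a log2 difference of -2.23 ± 0.17 (SE) between converted and wild type (limma, adjusted p = 0.00177). The converted allele has a human-derived part, and how far its reads reach the mouse gene's count was not tested. The call was lost with no variance trend (adjusted p = 0.176) and with all converted libraries as 1 group (0.329).

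Per kilobase of transcript, the subunit genes stood among the most abundant messages of these cells. Of the 82 with an annotated length, 74 lay at or above the 90th percentile of the tested protein-coding genes, whose median was 159.6 normalized counts per kb. The 2 below that median were Cox7b2 and Cox4i2, known as tissue-restricted isoforms. Median levels per kb were 3329 in complex I, 2002 in complex II, 8705 in complex III, 9219 in complex IV and 12448 in complex V. Within complex I, the membrane arm, which pumps protons, had a median of 4017 per kb over 20 genes, and the matrix arm, which oxidizes NADH, 2089 over 16. Cox6c, a small complex IV subunit, led that complex at 20967 per kb, followed by Cox8a at 18800.1. In complex V, Atp5b, the catalytic beta subunit, had 23064 per kb and Atp5k (subunit e) 22827. Complex III was led by Uqcr10 and Uqcr11, small accessory subunits, at 20692 and 14032 per kb, and complex I by Ndufa7 and Ndufa4 at 15901 and 15239 per kb. The protein of Ndufa4 is now assigned to complex IV, and the gene is kept here with the Nduf names.

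**Figure D1:**
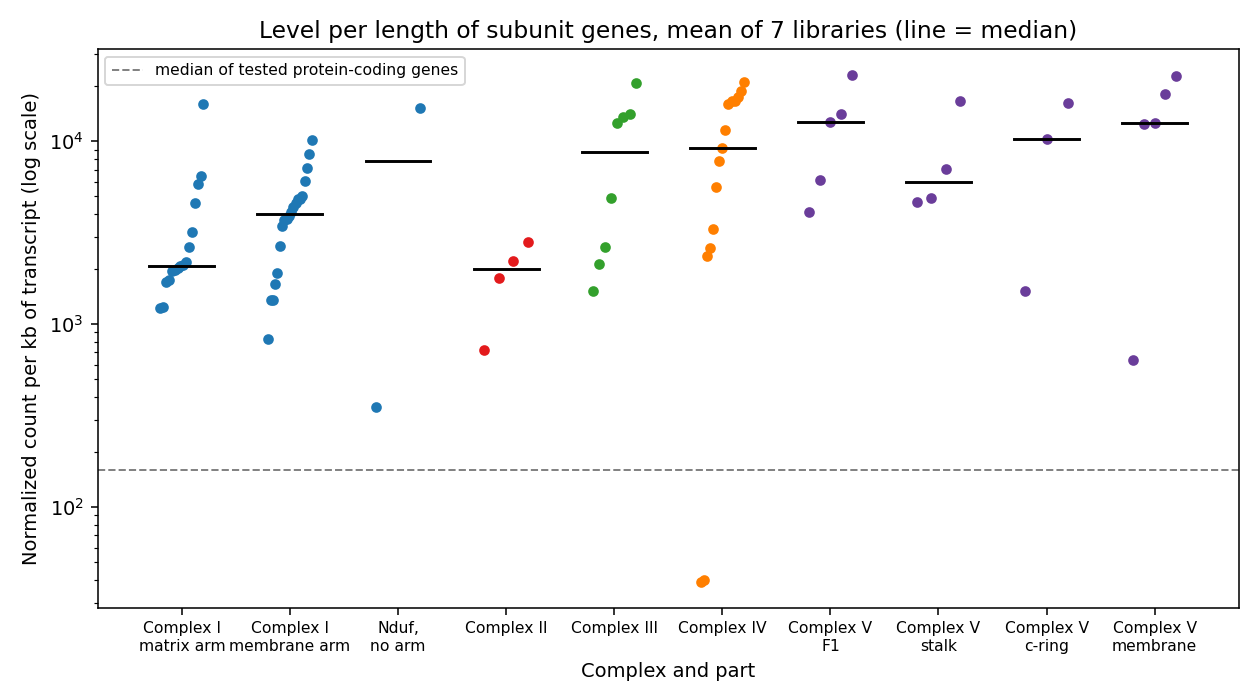
Normalized counts per kb of transcript (log scale) of each subunit gene, mean of 7 libraries, by complex and part; short lines are medians and the dashed line is the median of tested protein-coding genes (159.6). Nearly all points lie above the dashed line; the exceptions are Cox7b2 and Cox4i2 in complex IV.

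The members as a whole differed by small steps between libraries, and the 2 libraries of conv-dSVA_F&D lay further apart in the median than any pair of converted lines. They took 1.85% and 2.14% of reads in conv-dSVA_F&D, 1.87% and 1.90% in conv-dSVA_F, 1.94% and 2.11% in conv-dSVA_D, and 2.25% in the wild type. Relative to the wild-type library, the median log2 difference over the 83 genes was -0.46 and -0.19 in conv-dSVA_F&D, -0.43 and -0.36 in conv-dSVA_F, then -0.29 and -0.14 in conv-dSVA_D. All 6 medians were below 0, and the library nearest the wild type was conv-dSVA_D replicate 2. Within conv-dSVA_F&D, 79 of 83 genes were higher in replicate 2 than in replicate 1, by a median log2 difference of 0.23, while the median over all tested genes was -0.01. The same difference between replicates was 0.06 in conv-dSVA_F (51 of 83 higher) and 0.12 in conv-dSVA_D (69 of 83 higher). In bulk RNA, fewer cells with high levels and less RNA per cell cannot be told apart.

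Counted by gene, the wild type held the highest value for 47 of the 83. The lowest value fell in conv-dSVA_F&D replicate 1 for 38 genes and in conv-dSVA_F replicate 1 for 26. The spread of a member over the 7 libraries (SD of log2) had a median of 0.215 among members and 0.215 among 7150 other genes of similar level, and complex medians ran between 0.168 in complex II and 0.224 in complex IV. Among the steadiest were Atp5d, the delta subunit of the ATP synthase central stalk (3716 and 3934 normalized counts in conv-dSVA_F&D, 3579 and 3763 in conv-dSVA_F, 3997 and 4056 in conv-dSVA_D, 3598 in the wild type; SD of log2 0.07), and the complex I core subunit Ndufs1 (SD 0.10). Ndufs1 had 3101 and 3369.8 in conv-dSVA_F&D, 2965 and 3191 in conv-dSVA_F, 3304 and 3565 in conv-dSVA_D, and 3564 in the wild type. The highest library was 1.13 times the lowest for Atp5d and 1.20 times for Ndufs1. The widest were Cox7b2 (SD 1.95), Ndufa4l2 (1.51) and Cox4i2 (0.56).

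**Figure D2:**
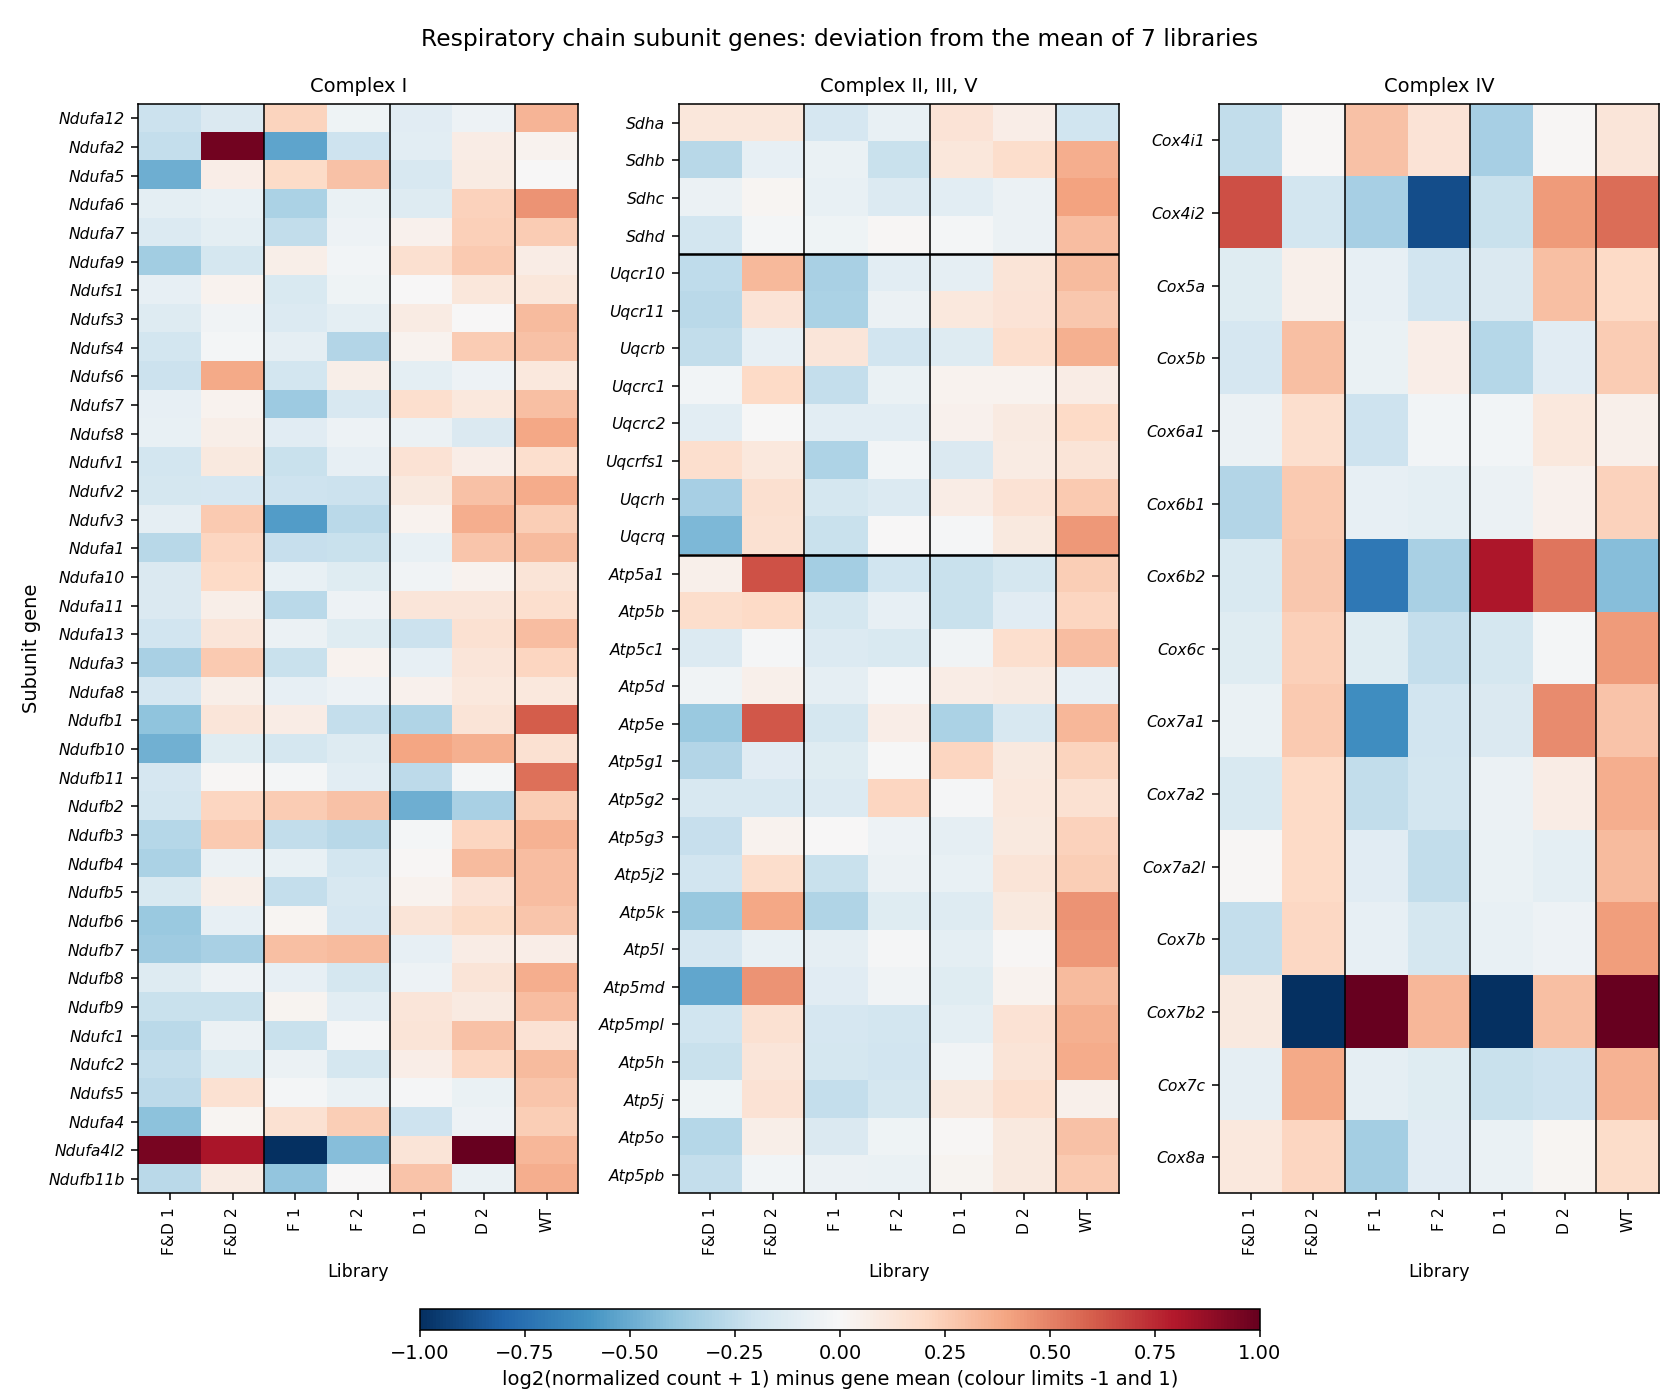
Heat map of 82 of the 83 subunit genes (down the page, by complex) in 7 libraries (conv-dSVA_F&D 1 and 2, conv-dSVA_F 1 and 2, conv-dSVA_D 1 and 2, wild type); colour is the log2 deviation from the gene's mean over libraries. The wild-type column is the highest for 47 genes, and the conv-dSVA_F&D replicate 1 column is the lowest for 38.

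The converted lines were compared with the wild type to ask how the subunit genes stood once Taf1 had been rewritten. No subunit gene passed the test (limma, Benjamini-Hochberg over 15240 genes, threshold 0.05), against 1.15% of all tested genes (0.623% higher and 0.525% lower), and 36 had an unadjusted p under 0.05, against 18.7% of all tested genes. On the same comparison edgeR called 1 (Ndufb11), as lower, against 1.4% of all genes called lower. DESeq2 called 5 (Cox6c, Ndufb1, Ndufb11, Ndufv2 and Sdhc), all lower, against 3.27% of the genes it gave an adjusted p. Differences nevertheless lay on one side: 80 of 83 were below 0, with a median of -0.32, against -0.01 over all tested genes. The medians were -0.32 in complex I, -0.39 in complex II, -0.31 in complex III, -0.33 in complex IV and -0.30 in complex V. Every converted library was below the wild type for 47 of the 83 genes (56.6%), against 19.0% of all tested genes, and above it for 1, against 18.8%. Since there is 1 wild-type library, its own deviation enters every one of these differences. Without conv-dSVA_F&D replicate 2 the count past the threshold was 8, all lower, against 1.8% of all tested genes called lower in that fit: Atp5k, Atp5md, Cox6c, Cox7b, Cox7c, Ndufb1, Ndufb11 and Uqcrq.

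Within complex I all 39 differences were below 0. Ndufb11, an accessory subunit of the membrane arm encoded on the X chromosome, had 1311 and 1488 normalized counts in conv-dSVA_F&D, 1459 and 1375 in conv-dSVA_F, 1231 and 1458 in conv-dSVA_D, and 2168 in the wild type. The converted libraries clustered together well below the wild type, with a log2 difference of -0.65 ± 0.15 (SE) that did not pass (limma, adjusted p = 0.0659). Its exons overlap those of Rbm10, which encodes an RNA-binding protein, over 117 bases on the opposite strand. Ndufb1, another membrane-arm accessory subunit, had a larger difference, -0.70 ± 0.21, with more spread among converted libraries (2401 to 3463 normalized counts, against 4807 in the wild type; limma, adjusted p = 0.121). Its exons overlap those of Cpsf2 over 147 bases, also on the opposite strand. The 2 most abundant complex I genes per kb lay on the same side without passing. Ndufa7 had 7568 and 7784 normalized counts in conv-dSVA_F&D, 7039 and 8027 in conv-dSVA_F, 8599.6 and 9838 in conv-dSVA_D, and 9914 in the wild type. Ndufa4 had 6896 and 9293 in conv-dSVA_F&D, 10227 and 10892 in conv-dSVA_F, 7972 and 8888 in conv-dSVA_D, and 10902 in the wild type. For both genes the wild type was the highest library by a small margin, over conv-dSVA_D replicate 2 for Ndufa7 and conv-dSVA_F replicate 2 for Ndufa4.

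The 4 genes of complex II did not lie on one side of the wild type. Sdha, the flavoprotein that oxidizes succinate, had 5619.9 and 5622 normalized counts in conv-dSVA_F&D, 4629 and 4939 in conv-dSVA_F, 5704 and 5443 in conv-dSVA_D, and 4510.00 in the wild type. It was the member for which every converted library exceeded the wild type, with a log2 difference of 0.24 ± 0.11 (limma, adjusted p = 0.296). Sdhb, the iron-sulfur subunit, had 2061 and 2359.8 in conv-dSVA_F&D, 2377 and 2134 in conv-dSVA_F, 2706 and 2815 in conv-dSVA_D, and 3204 in the wild type. Among the membrane anchors, Sdhc had 2181 and 2303 in conv-dSVA_F&D, 2153 and 2068 in conv-dSVA_F, 2111 and 2177 in conv-dSVA_D, and 3000.5 in the wild type. For Sdhd the values were 3039 and 3405 in conv-dSVA_F&D, 3363 and 3479 in conv-dSVA_F, 3420.2 and 3329 in conv-dSVA_D, and 4291 in the wild type. Sdhb, Sdhc and Sdhd were thus below the wild type in 6 of 6 converted libraries. The difference for Sdhc was -0.47 ± 0.12 (limma, adjusted p = 0.0819) and for Sdhb -0.42 ± 0.13 (adjusted p = 0.127).

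In complex III all 8 differences were below 0. Uqcr10 had 7435 and 11099.7 normalized counts in conv-dSVA_F&D, 7054 and 8245 in conv-dSVA_F, 8309 and 9686 in conv-dSVA_D, and 11033 in the wild type. Uqcr11 had 5131 and 6798 in conv-dSVA_F&D, 4964 and 5929 in conv-dSVA_F, 6645 and 6795 in conv-dSVA_D, and 7448 in the wild type. In both genes conv-dSVA_F&D replicate 2 stood nearer the wild type than replicate 1 did. Complex IV had 14 of 15 differences below 0, the exception being Cox6b2. Cox6c had 9589 and 12294 in conv-dSVA_F&D, 9580.2 and 8838 in conv-dSVA_F, 9209 and 10291 in conv-dSVA_D, and 14023 in the wild type, so that all converted libraries were lower. Cox8a had 11043 and 11901 in conv-dSVA_F&D, 8112 and 9506 in conv-dSVA_F, 9796 and 10381 in conv-dSVA_D, and 11641 in the wild type, which conv-dSVA_F&D replicate 2 exceeded. Cox7b2, known as a testis isoform, was low throughout, with 11.9 and 0 in conv-dSVA_F&D, 28.9 and 14.2 in conv-dSVA_F, 4.80 and 13.9 in conv-dSVA_D, and 73.1 in the wild type. No converted library reached the wild-type value, but the fitted log2 difference, -3.05 ± 1.27, depends on the added count and did not pass (limma, adjusted p = 0.233).

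Complex V had 16 of 17 differences below 0, the exception being Atp5d. Atp5b had 49524 and 50433 normalized counts in conv-dSVA_F&D, 38849.9 and 41438 in conv-dSVA_F, 37653 and 40571 in conv-dSVA_D, and 50859.8 in the wild type. The line lacking both SVAs thus stood beside the wild type and both lines lacking a single SVA stood lower (conv-dSVA_F&D minus conv-dSVA_D 0.35 ± 0.12, limma, adjusted p = 0.141). Atp5k had 6369 and 10816 in conv-dSVA_F&D, 6713 and 7631 in conv-dSVA_F, 7592 and 8859 in conv-dSVA_D, and 11302 in the wild type, and its conv-dSVA_F&D libraries were further apart than those of either other line. Atp5l, the gene for subunit g, is the member most open to misassigned reads: 10 near-identical copies elsewhere in the genome together held 56.8% of its own mean count.

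Transcript length moved with the difference from the wild type. The subunit genes are short, with a median transcript of 731.5 bases, against 2906 for tested protein-coding genes, and the shorter a class of other genes, the lower its median against the wild type. Among genes under 500 bases the median log2 difference was -0.37 for 10 members and -0.46 for 687 others. At 500 bases or more but under 1000 it was -0.30 for 46 members and -0.28 for 1215 others. At 1000 bases or more but under 2000 it was -0.36 for 21 members and -0.13 for 3243 others, and at 2000 bases or more -0.15 for 5 members and 0.08 for 9554 others. Members under 1000 bases thus stood close to other genes of their length, and the longer members stood below theirs. With the length trend of non-member genes set equal between libraries, the median over members was -0.08, in place of -0.32. Across genes, Spearman's rho of length with the difference was 0.146 over 82 members and 0.302 over 14699 others, as a description, since all share the same libraries. The share of reads on cytoplasmic ribosomal protein genes, which are also short, was 8.70% and 9.25% in conv-dSVA_F&D, 8.34% and 8.28% in conv-dSVA_F, 7.48% and 8.12% in conv-dSVA_D, and 10.5% in the wild type. The mitochondrially encoded share did not separate the groups, with 0.344% and 0.253% in conv-dSVA_F&D, 0.423% and 0.333% in conv-dSVA_F, 0.371% and 0.310% in conv-dSVA_D, and 0.338% in the wild type. Only 7 of the 13 mitochondrially encoded subunit genes met the minimum, and 3 were at 0 in every library, so this share covers them only in part.

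**Figure D3:**
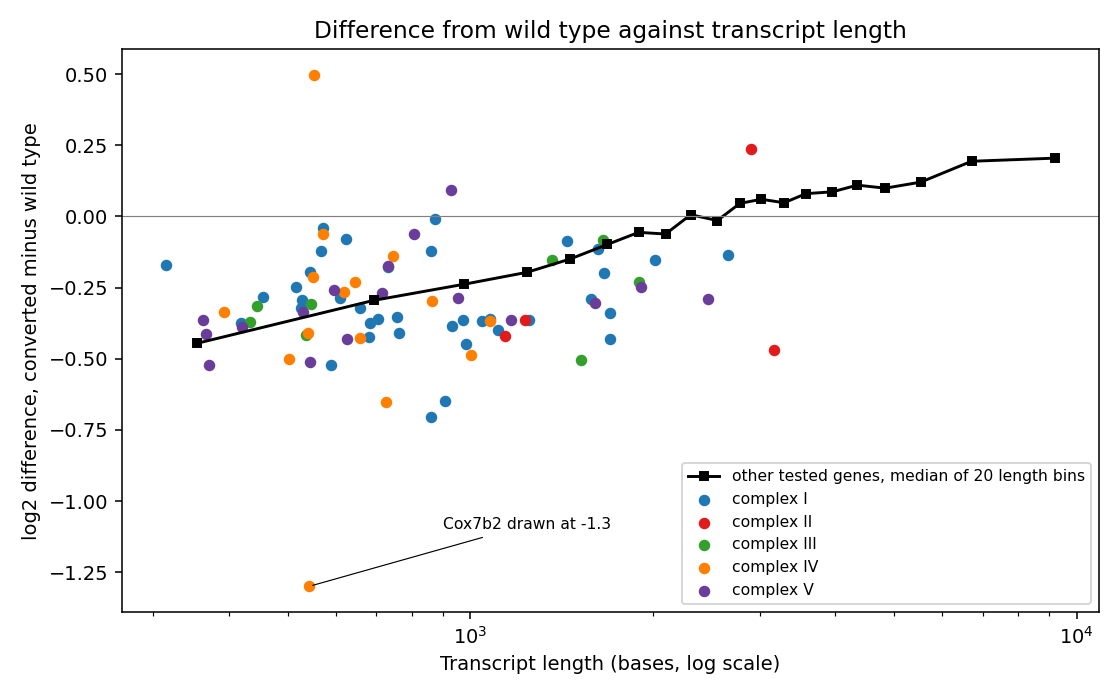
Log2 difference, converted minus wild type, of each subunit gene (points, coloured by complex) against transcript length in bases (log scale); the black line joins medians of all other genes in 20 bins of length, and Cox7b2 is drawn at -1.3 in place of its value. Members under 1000 bases lie around the line, and most longer members lie below it, at a median of -0.36 against -0.13 between 1000 and 2000 bases.

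Markers of other cells were also compared between converted and wild type. The summed level of 12 fibroblast and feeder markers was 262 to 456 normalized counts in converted libraries and 752 in the wild type. Of the 12, 5 were lower in every converted library than in the wild type (Col1a1, Col1a2, Col3a1, Postn and Acta2), none was higher in every one, and 7 were neither. Of all tested genes, 19.0% were lower in every converted library and 18.8% were higher in every one. Acta2, also made by smooth muscle, had the highest wild-type level of the list, 299 normalized counts, against 4.18 to 115 in the converted libraries. Fbn1 went the other way in 5 of 6 converted libraries, with 62.7 to 208, against 72.0 in the wild type. Lum was at 0 in all 7 libraries, Dcn was at 0 in the wild type, and Postn was at 0 in the converted libraries. Of the 8 tested, 0 passed against the wild type with limma (2 at an unadjusted p under 0.05), 2 with edgeR and 1 with DESeq2. An unadjusted limma p under 0.05 was found for 18.7% of all tested genes, and edgeR called 1.4% of all tested genes as lower. DESeq2 called 3.27% of the genes it gave an adjusted p as lower. The 12 primitive endoderm markers summed to 2496 to 4729 in converted libraries and 2402 in the wild type. Among these 12, 3 were higher in every converted library (Sox7, Lama1 and Amn), against 18.8% of all tested genes. Of the 9 tested, 0 passed against the wild type with limma (2 at an unadjusted p under 0.05), 0 with edgeR and 1 with DESeq2. The 11 trophoblast markers summed to 1913 and 2679 in conv-dSVA_F&D, 5538 and 2498 in conv-dSVA_F, 1122 and 1244 in conv-dSVA_D, and 1929.8 in the wild type, highest in conv-dSVA_F replicate 1 through Krt8 and Krt18. The 8 neural markers summed to 1152 to 2243 in converted libraries and 1714 in the wild type, and none was on one side in all 6. The 11 two-cell-like markers summed to 850 and 529 in conv-dSVA_F&D, 1104 and 649 in conv-dSVA_F, 90.2 and 110.2 in conv-dSVA_D, and 2747 in the wild type. All 11 were lower in every converted library, against 19.0% of all tested genes, and 4 passed as lower with limma, against 0.525%. The part of length, marker levels or ribosomal protein share in the subunit genes' difference was not tested.

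Between conv-dSVA_F&D and conv-dSVA_D, lines that differ by the SVA_F deletion, 1 of 83 subunit genes passed the test and was lower, against 3.16% of all tested genes (1.96% higher and 1.21% lower). An unadjusted p under 0.05 was found for 16 (19.3%), near the 19.8% of all tested genes. The gene that passed was Ndufb10 (ENSMUSG00000040048.14, chr17:24722060-24724478, minus strand), whose product is an accessory subunit of the complex I membrane arm. It had 1896 and 2429 normalized counts in conv-dSVA_F&D, 2344 and 2421 in conv-dSVA_F, 3486 and 3391 in conv-dSVA_D, and 2938 in the wild type. Both lines without SVA_F lay below conv-dSVA_D with no overlap, and the wild type lay between. The means were 2163 ± 377 in conv-dSVA_F&D, 2383 ± 54.3 in conv-dSVA_F and 3439 ± 67.3 in conv-dSVA_D (SD, n = 2 each). Ndufb10 fell to 0.624 of its conv-dSVA_D level in conv-dSVA_F&D (log2 difference -0.68 ± 0.13 SE, limma, adjusted p = 0.0301). Between conv-dSVA_F and conv-dSVA_D its difference was -0.53 ± 0.13 and missed the threshold (adjusted p = 0.0892). The call between conv-dSVA_F&D and conv-dSVA_D was lost on leaving out either conv-dSVA_D library (adjusted p = 0.199 without replicate 1 and 0.164 without replicate 2), either conv-dSVA_F library (0.0597 and 0.0605) or conv-dSVA_F&D replicate 1 (0.0525), while the difference stayed between -0.86 and -0.50.

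Complex I as a whole leaned the same way in that comparison: 32 of 39 differences were below 0, with a median of -0.13, and both libraries of conv-dSVA_F&D lay below both of conv-dSVA_D for 15 of the 39, against 24.8% of all tested genes. In complex IV this held for 1 of 15. The nearest to the threshold was Ndufa9, a matrix-arm subunit, with 2226 and 2519 normalized counts in conv-dSVA_F&D, 2959 and 2789 in conv-dSVA_F, 3165 and 3401 in conv-dSVA_D, and 2991 in the wild type (log2 difference -0.47 ± 0.12, limma, adjusted p = 0.0609). It lies on chromosome 6, whose genes had a median log2 difference from the wild type of 0.0032 and -0.015 in conv-dSVA_F&D and of 0.16 and 0.14 in conv-dSVA_D. Over all 83 genes, 22 were lower without overlap (26.5%), near the background, and 8 higher, against 25.1%. The median over members was -0.09, beside -0.0029 over all tested genes. It was 0.03 without conv-dSVA_F&D replicate 1 and -0.22 without replicate 2, so that its direction turned with 1 library. Without replicate 1, 5 members passed, each with conv-dSVA_F&D on the higher side, against 2.43% of all tested genes called higher in that fit: Atp5a1, Atp5e, Cox7c, Ndufa2 and Ndufb2. DESeq2 also called 5, against 7.9% of the genes it gave an adjusted p: Ndufb10, Ndufa9 and Cox6b2 as lower, Atp5a1 and Atp5b as higher.

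Between conv-dSVA_F&D and conv-dSVA_F, lines that differ by the SVA_D deletion, 1 member passed and was lower, against 3.92% of all tested genes (1.71% higher and 2.21% lower), and 16 (19.3%) had an unadjusted p under 0.05, near the 20.7% of all tested genes. Ndufb7 (ENSMUSG00000033938.5, chr8:83566671-83571626, plus strand) encodes a membrane-arm subunit on the intermembrane side of complex I. Its level was 2402 and 2459 normalized counts in conv-dSVA_F&D, 3793 and 3820.5 in conv-dSVA_F, 2906 and 3231 in conv-dSVA_D, and 3219 in the wild type. The libraries of each line stood close together, with conv-dSVA_F highest and conv-dSVA_F&D lowest. The means were 2430.2 ± 40.4 in conv-dSVA_F&D, 3807 ± 19.2 in conv-dSVA_F and 3068 ± 230.3 in conv-dSVA_D (SD, n = 2 each). Ndufb7 fell to 0.638 of its conv-dSVA_F level (log2 difference -0.65 ± 0.11, limma, adjusted p = 0.0197). It no longer passed when conv-dSVA_F replicate 1 (adjusted p = 0.168) or replicate 2 (0.0756) was left out.

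Ndufb7 lies on chromosome 8, and in the conv-dSVA_F libraries chromosome 8 as a whole was high. Genes of that chromosome had a median log2 difference from the wild type within 0.01 of 0 in both conv-dSVA_F&D libraries, of 0.63 and 0.44 in the conv-dSVA_F libraries, and of 0.07 and 0.24 in the conv-dSVA_D libraries. On chromosome 6 the median was 0.41 and 0.36 for conv-dSVA_F, against 0.16 and 0.14 for conv-dSVA_D. On chromosome 18 it was 0.51 in conv-dSVA_F&D replicate 2. With the chromosome medians set equal between libraries, the Ndufb7 difference was -0.11 and did not pass (adjusted p = 0.629). Members on chromosomes 6 and 8 stood apart from the rest. On chromosome 6 (Ndufa4, Ndufa5, Ndufa9 and Ndufb2) the median difference between conv-dSVA_F&D and conv-dSVA_F was -0.34, and on chromosome 8 (Cox4i1, Ndufa13 and Ndufb7) -0.33, against 0.08 for the 73 members on chromosomes other than 6, 8 and 18. Of the 10 members lower in both conv-dSVA_F&D libraries without overlap (25.5% of all tested genes were), 4 came from the 4 on chromosome 6, 2 from the 3 on chromosome 8 and 4 from the 73 elsewhere. Cox4i1, the common isoform of complex IV subunit 4, had 10245 and 12299 normalized counts in conv-dSVA_F&D, 14914 and 13414 in conv-dSVA_F, 9684 and 12311 in conv-dSVA_D, and 13227 in the wild type. Its difference of -0.33 ± 0.14 between conv-dSVA_F&D and conv-dSVA_F (limma, adjusted p = 0.229) turned to 0.20 with chromosome medians set equal.

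The members on chromosome 18 set conv-dSVA_F&D replicate 2 apart. Atp5a1, the alpha subunit of the ATP synthase head, had 31877 and 47867 normalized counts in conv-dSVA_F&D, 24349.9 and 26821 in conv-dSVA_F, 26349 and 27226 in conv-dSVA_D, and 36554 in the wild type. Ndufa2, a matrix-arm subunit, had 2995 and 6872 in conv-dSVA_F&D, 2442 and 3061 in conv-dSVA_F, 3277 and 3714 in conv-dSVA_D, and 3614 in the wild type. In both genes replicate 2 was the highest of the 7 libraries. The difference between conv-dSVA_F&D and conv-dSVA_F was 0.61 ± 0.18 for Atp5a1 (limma, adjusted p = 0.0856) and 0.73 ± 0.30 for Ndufa2 (adjusted p = 0.207). Without conv-dSVA_F&D replicate 1 both passed (0.91, adjusted p = 0.0181, and 1.33, adjusted p = 0.0117). Without replicate 2 the differences were 0.32 (adjusted p = 0.253) for Atp5a1 and 0.13 (adjusted p = 0.728) for Ndufa2, so that both rested mainly on replicate 2.

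**Figure D4:**
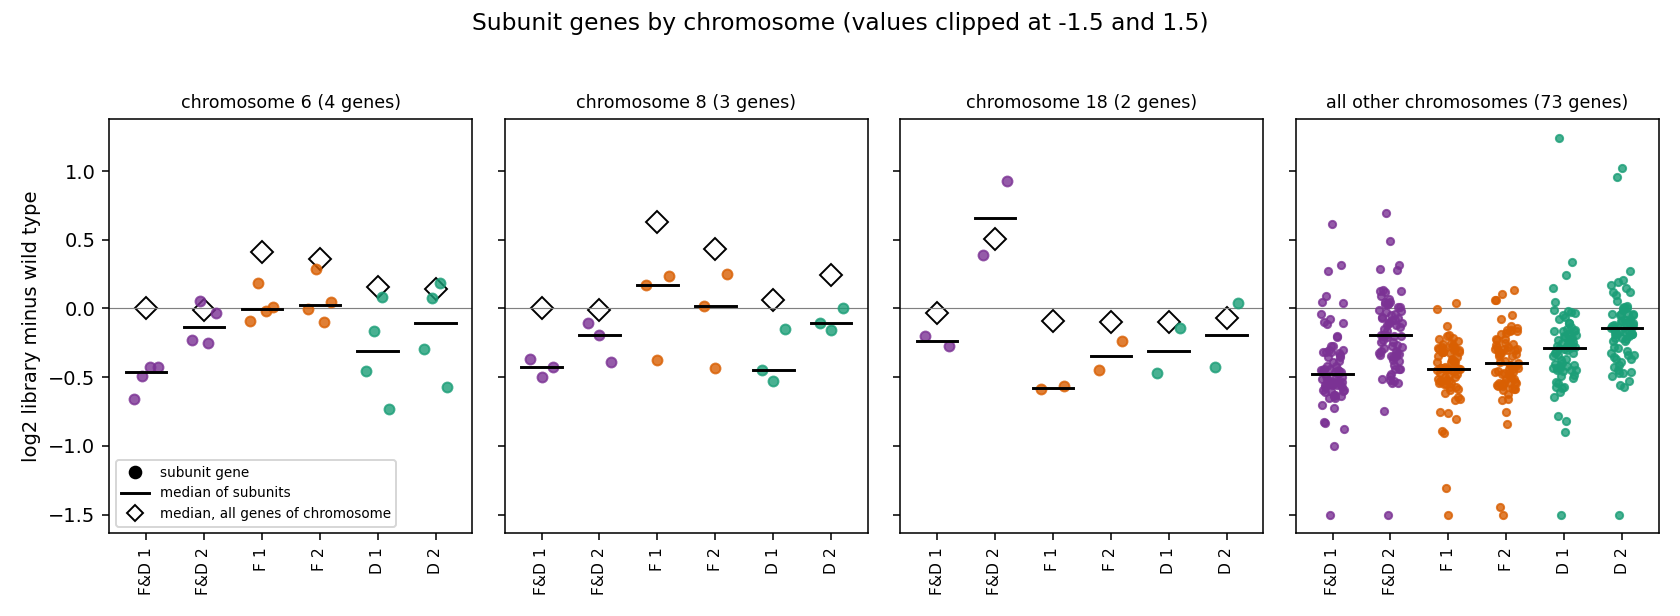
Log2 difference from the wild type of subunit genes (points) in the 6 converted libraries, for members on chromosomes 6, 8 and 18 and on all others, values clipped at -1.5 and 1.5; diamonds are the median of all genes of the chromosome. Diamonds stand at 0.63 and 0.44 on chromosome 8 in conv-dSVA_F, and at 0.51 on chromosome 18 in conv-dSVA_F&D replicate 2.

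Complex IV genes tended to the other side of this comparison. Of their 15 differences 13 were above 0, with a median of 0.24, and both conv-dSVA_F&D libraries exceeded both of conv-dSVA_F for 7 of 15, against 23.8% of all tested genes. The 2 conv-dSVA_F&D libraries differed in this. The median log2 deviation of complex IV genes from their means over the 7 libraries was -0.12 and 0.21 in conv-dSVA_F&D. It was -0.11 and -0.18 in conv-dSVA_F, so that conv-dSVA_F&D replicate 1 lay between the conv-dSVA_F libraries and only replicate 2 above them. None of the 15 passed with limma or edgeR, 4 had an unadjusted limma p under 0.05, and DESeq2 called Cox6b2 and Cox8a as higher, against 4.4% of the genes it gave an adjusted p. The median over all 83 was 0.07 (56 above 0) beside -0.01 over all tested genes, 0.21 without conv-dSVA_F&D replicate 1 and -0.05 without replicate 2. Leaving out replicate 1 gave 9 members past the threshold (7 higher and 2 lower, against 1.96% of all tested genes higher and 3.71% lower). Leaving out replicate 2 gave 3, all lower (Ndufa4, Ndufa5 and Ndufb7), against 1.52% of all tested genes.

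Between conv-dSVA_F and conv-dSVA_D, the lines lacking a single SVA each, 1 member passed and was lower, against 1.35% of all tested genes (1.08% higher and 0.262% lower), and 18 (21.7%) had an unadjusted p under 0.05, against 16.7% of all tested genes. Cox6b2 (ENSMUSG00000051811.14, chr7:4751792-4753094, minus strand) is known as the testis isoform of complex IV subunit 6B, and Cox6b1 is the isoform of most tissues. Cox6b2 had 1211 and 1624 normalized counts in conv-dSVA_F&D, 819 and 1077 in conv-dSVA_F, 2365 and 1949 in conv-dSVA_D, and 1002 in the wild type. The conv-dSVA_D libraries were the highest of all, conv-dSVA_F lay around the wild type, and conv-dSVA_F&D lay between. The means were 1418 ± 292 in conv-dSVA_F&D, 948 ± 183 in conv-dSVA_F and 2157 ± 294 in conv-dSVA_D (SD, n = 2 each). Cox6b2 fell to 0.438 of its conv-dSVA_D level in conv-dSVA_F (log2 difference -1.19 ± 0.19, limma, adjusted p = 0.0225). It no longer passed when conv-dSVA_F replicate 1 (adjusted p = 0.285), conv-dSVA_D replicate 1 (0.211) or conv-dSVA_D replicate 2 (0.102) was left out. Its difference was -0.61 ± 0.19 between conv-dSVA_F&D and conv-dSVA_D (adjusted p = 0.108) and 0.58 ± 0.19 between conv-dSVA_F&D and conv-dSVA_F (adjusted p = 0.121). These comparisons share libraries, so their values are not independent. Leaving out conv-dSVA_F&D replicate 1 or replicate 2 gave 3 members past the threshold between conv-dSVA_F and conv-dSVA_D (Cox6b2, Ndufb10 and Ndufb2), against 3.18% of all tested genes either way. Leaving out conv-dSVA_F replicate 2 gave 2 (Cox6b2 and Ndufa4l2), against 0.715%. DESeq2 called 5, against 5.08% of the genes it gave an adjusted p, adding Ndufb10, Ndufb2, Ndufv2 and Ndufv3 to Cox6b2.

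Cox6b1 did not mirror its paralog. It had 7993 and 11769.7 normalized counts in conv-dSVA_F&D, 9234 and 9158 in conv-dSVA_F, 9397 and 10113 in conv-dSVA_D, and 11486 in the wild type, and conv-dSVA_F differed from conv-dSVA_D by -0.08 ± 0.16 (limma, adjusted p = 0.851). Per kb, Cox6b2 accordingly made up 14.5% and 13.4% of the pair in conv-dSVA_F&D, 9.01% and 11.6% in conv-dSVA_F, 22.0% and 17.7% in conv-dSVA_D, and 8.88% in the wild type. No near-identical copy of either gene was found, and the exons of Cox6b2 overlap no other gene.

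In the same comparison 67 of 83 differences were below 0, with a median of -0.16, against -0.0072 over all tested genes, and across all alternatives run the median stayed between -0.21 and -0.10. Both conv-dSVA_F libraries lay below both conv-dSVA_D libraries for 48 of 83 (57.8%), against 25.6% of all tested genes: 25 of 39 in complex I, 2 of 4 in complex II, 5 of 8 in complex III, 8 of 15 in complex IV and 8 of 17 in complex V. The other 9 without overlap were higher, against 26.4%, and 5 of these lay on chromosomes 6 and 8. Ndufb2, an accessory subunit of the membrane arm on chromosome 6, had 1717 and 2257 normalized counts in conv-dSVA_F&D, 2322 and 2383 in conv-dSVA_F, 1388 and 1554 in conv-dSVA_D, and 2308 in the wild type. The conv-dSVA_D libraries were the lowest, and conv-dSVA_F exceeded them by 0.68 ± 0.15 (limma, adjusted p = 0.0587). Genes of chromosome 6 had a median log2 difference from the wild type of 0.41 and 0.36 in conv-dSVA_F and of 0.16 and 0.14 in conv-dSVA_D. Over the alternatives run, the Ndufb2 difference lay between 0.41 and 0.76, and the lowest value was that with chromosome medians set equal. Exons of Ndufb2 overlap those of Braf on the opposite strand over 146 bases, and the sources used here do not give the strand setting of the counting. In Ndufv3, a small matrix-arm subunit, the levels were 3039.8 and 3873 in conv-dSVA_F&D, 2199 and 2684 in conv-dSVA_F, 3309 and 4161 in conv-dSVA_D, and 3837 in the wild type. The conv-dSVA_F libraries were the lowest, by -0.61 ± 0.16 from conv-dSVA_D (adjusted p = 0.105).

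**Figure D5:**
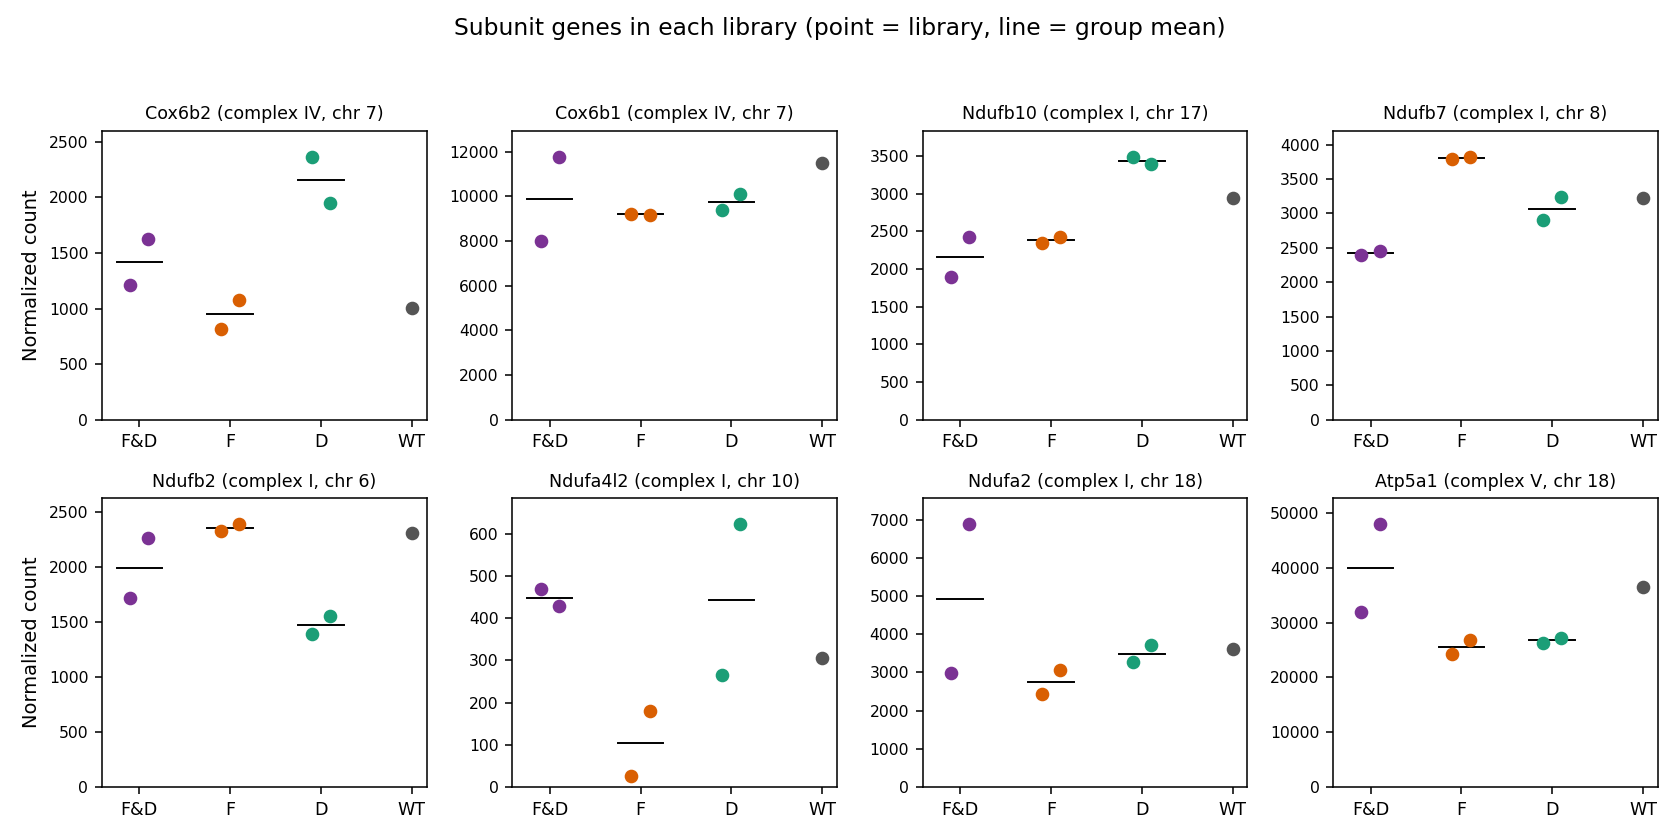
Normalized counts of 8 subunit genes in each library (points) with group means (lines), in the order conv-dSVA_F&D, conv-dSVA_F, conv-dSVA_D and wild type; every axis starts at 0. Cox6b2 is highest in conv-dSVA_D (2365 and 1949) and Ndufb7 lowest in conv-dSVA_F&D (2402 and 2459), while Ndufa2 and Atp5a1 split the conv-dSVA_F&D replicates.

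In a moderated F test over the 3 converted groups, the genes past the threshold were the 3 named as passing above, against 5.58% of all tested genes: Cox6b2 (limma, adjusted p = 0.0213), Ndufb7 (0.0258) and Ndufb10 (0.0346). The F test uses the same fit and libraries as the tests between pairs of lines, so it is not independent of them.

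Of the paired isoforms, the widely expressed one dominated in every library. Cox4i2, known from lung and low oxygen, ranged over 14.2 to 43.0 normalized counts and made up 0.109% to 0.429% of its pair per kb, Cox6a2, a muscle isoform, at most 0.0977%, and Cox8c, a testis isoform, at most 0.149%. Cox6a1, the common partner of Cox6a2, had 6285 and 7371 normalized counts in conv-dSVA_F&D, 5669 and 6431 in conv-dSVA_F, 6430.5 and 7036 in conv-dSVA_D, and 6793 in the wild type, with overlap between the converted lines. Cox7a1, the heart and muscle isoform, reached 9.34% to 15.0%. Its level was 861 and 1079.6 normalized counts in conv-dSVA_F&D, 585 and 790.1 in conv-dSVA_F, 813 and 1253 in conv-dSVA_D, and 1099 in the wild type. Cox7a2 had 10164 and 13012 in conv-dSVA_F&D, 9512 and 9969 in conv-dSVA_F, 10883 and 11905 in conv-dSVA_D, and 14566 in the wild type. In both genes conv-dSVA_F was lowest. Cox7a2l, a related factor of supercomplex assembly, had 3584 and 4075 in conv-dSVA_F&D, 3284 and 2998 in conv-dSVA_F, 3403 and 3324 in conv-dSVA_D, and 4423 in the wild type, the highest of its values.

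The 3 genes for subunit c, the rotor ring of ATP synthase, encode the same mature protein. Atp5g1 gave 55.6% to 62.6% of their summed level per kb, Atp5g3 32.4% to 39.4% and Atp5g2 5.05% to 6.32%. Atp5g1 had 7791 and 8793 normalized counts in conv-dSVA_F&D, 8731 and 9508 in conv-dSVA_F, 11036 and 10173 in conv-dSVA_D, and 11104 in the wild type. It was lowest in conv-dSVA_F&D replicate 1 and highest in the wild type, and the groups of the converted lines overlapped only between conv-dSVA_F&D and conv-dSVA_F. Atp5g3 had 6229 and 7461 in conv-dSVA_F&D, 7313 and 7055 in conv-dSVA_F, 6844 and 7792 in conv-dSVA_D, and 8548 in the wild type, again the highest library. Atp5g2 ranged over 982 to 1273.

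Ndufa4l2, a paralog of Ndufa4 induced in low oxygen, had the second widest spread, after Cox7b2. It had 469 and 429 normalized counts in conv-dSVA_F&D, 26.4 and 181 in conv-dSVA_F, 266 and 622 in conv-dSVA_D, and 306 in the wild type. Both conv-dSVA_F libraries lay below every other. Its exons overlap those of Shmt2, an abundant gene at a mean of 4768 normalized counts, over 32 bases on the opposite strand. The difference between conv-dSVA_F&D and conv-dSVA_F was 2.67 ± 0.71 (limma, adjusted p = 0.0689) and that between conv-dSVA_F and conv-dSVA_D -2.53 ± 0.71 (adjusted p = 0.116). Without conv-dSVA_F replicate 2 both passed (4.04, adjusted p = 0.0108, and -3.90, adjusted p = 0.0142). Without conv-dSVA_F replicate 1 they were 1.31 (adjusted p = 0.295) and -1.17 (adjusted p = 0.524), so that the size of both rested mainly on that library. Per kb it made up 0.168% of the pair with Ndufa4 in conv-dSVA_F replicate 1 and 4.37% in conv-dSVA_D replicate 2, the lowest and highest shares.

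Genes that assemble, feed or regulate the chain were counted by lists. None of the 17 assembly factors of complex I, 4 of complex II, 6 of complex III or 6 of complex V passed with limma in any comparison. Neither did the 7 of 13 mitochondrially encoded subunits that met the minimum, 16 regulators of mitochondrial biogenesis or 21 import genes. Over these 77 genes, 19 had an unadjusted p under 0.05 between conv-dSVA_F&D and conv-dSVA_D, 10 between conv-dSVA_F&D and conv-dSVA_F, 6 between conv-dSVA_F and conv-dSVA_D, and 13 against the wild type, beside the 19.8%, 20.7%, 16.7% and 18.7% of all tested genes. DESeq2 called 2, 2, 1 and 6 of them in those comparisons, and edgeR called 1 against the wild type and 0 in the others. The assembly factors of complex I had a median difference of -0.22 between conv-dSVA_F&D and conv-dSVA_D and of -0.20 between converted and wild type, beside -0.13 and -0.32 for complex I itself. Of 21 complex IV assembly factors, conv-dSVA_F&D had 3 lower than conv-dSVA_D (Cmc1, Cox20 and Cmc2) and 3 lower than conv-dSVA_F (Cmc2, Pet100 and Cox20), with 17 of 21 differences below 0 in each, against 1.21% and 2.21% of all tested genes called lower. Cmc1, a copper-related assembly factor of cytochrome c oxidase, had 234 and 167 normalized counts in conv-dSVA_F&D, 299.5 and 328 in conv-dSVA_F, 473 and 489.8 in conv-dSVA_D, and 548 in the wild type (conv-dSVA_F&D minus conv-dSVA_D -1.28 ± 0.21, limma, adjusted p = 0.0177). Cmc2 had 391 and 439 in conv-dSVA_F&D, 859 and 802 in conv-dSVA_F, 669 and 829 in conv-dSVA_D, and 620.0 in the wild type. In conv-dSVA_F&D Cmc2 fell by 0.85 ± 0.17 (adjusted p = 0.0299) against conv-dSVA_D and by 1.00 ± 0.17 against conv-dSVA_F (adjusted p = 0.0183). Cox20, which handles the mitochondrially encoded subunit COX2, fell by 1.04 ± 0.19 against conv-dSVA_D (adjusted p = 0.0226) and by 0.78 ± 0.19 against conv-dSVA_F (adjusted p = 0.0498). The complex IV subunit genes themselves had a median of 0.04 in conv-dSVA_F&D against conv-dSVA_D and 0.24 against conv-dSVA_F.

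Of 13 genes for electron carriers, Cycs, the somatic cytochrome c between complexes III and IV, had 1397 and 1698 normalized counts in conv-dSVA_F&D, 3169.6 and 2378 in conv-dSVA_F, 1515 and 1419.7 in conv-dSVA_D, and 2687 in the wild type. Its conv-dSVA_F libraries stood around the wild type and above both other lines. The difference was -0.83 ± 0.16 between conv-dSVA_F&D and conv-dSVA_F (limma, adjusted p = 0.0252) and 0.90 ± 0.16 between conv-dSVA_F and conv-dSVA_D (adjusted p = 0.0310). Coq3, an enzyme of ubiquinone synthesis, fell in conv-dSVA_F&D against conv-dSVA_D by 0.78 ± 0.15 (adjusted p = 0.0279). Of 77 mitochondrial ribosome genes, conv-dSVA_F&D had 3 lower than conv-dSVA_D (Mrpl57, Mrpl16 and Mrpl51), against 1.21% of all tested genes, and 1 lower than conv-dSVA_F (Mrps25), against 2.21%. In converted lines 1 was higher than in the wild type (Mrpl12), against 0.623%. The median of those 77 against the wild type was -0.25, beside -0.32 for the subunit genes. Of 19 genes listed for the TCA cycle, 2 passed between conv-dSVA_F&D and conv-dSVA_F (Suclg2 lower and Idh2 higher, against 2.21% and 1.71% of all tested genes). Against the wild type 1 passed as higher, against 0.623%: Pcx, pyruvate carboxylase, which feeds the cycle and is not one of its own steps. Among those calls between conv-dSVA_F&D and conv-dSVA_F, Cycs, Mrps25 and Suclg2 lie on chromosome 6 and Cmc2 and Pet100 on chromosome 8. With chromosome medians set equal none of these 5 passed (adjusted p = 0.186 for Cycs, 0.233 for Mrps25, 0.215 for Suclg2, 0.149 for Cmc2 and 0.615 for Pet100). The same setting also ended 4 other calls: Cox20 (0.0655) and Idh2 (0.0980) between conv-dSVA_F&D and conv-dSVA_F, Mrpl51 (0.0804) between conv-dSVA_F&D and conv-dSVA_D, and Cycs (0.0893) between conv-dSVA_F and conv-dSVA_D. Every list gene named here lost its call on leaving out a library: conv-dSVA_D replicate 1 for the comparisons with conv-dSVA_D and the wild type, and conv-dSVA_F replicate 1 for those with conv-dSVA_F.

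Reads of near-identical gene copies and of overlapping genes limit some values. Of 82 members with a transcript, 24 have a copy elsewhere at 95% identity or more over at least 100 bases, but only in 4 (Atp5l, Atp5g2, Cox7c and Atp5md) did the copies hold over 1% of the member's mean count. Exons of 30 members overlap another gene, 26 of them on the opposite strand.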

How the data were processed

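RNA of 7 mouse embryonic stem cell libraries of the series' 10 samples was analysed. The deposited signal was, judged by its header and values, a table of read counts per gene divided by 1 size factor a library (normalized counts). The submitters' processing notes list Trimmomatic 0.36, STAR 2.7.3, Picard 2.18.20, featureCounts 1.6.3, DESeq2, deepTools 3.1.0 and mm10, without roles. The sources used here give neither the strand setting nor the annotation of the counting. Dividing by each column's smallest step gave whole reads (within 0.1 read) for 100% of values, 16588467 to 26562418 a library.

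The test was limma 3.58.1 (R 4.3.3) with a variance trend on log2 of the normalized count plus 1, over 15240 genes with a mean of at least 10, with 1 mean per group and no other term, two-sided, Benjamini-Hochberg adjusted, at a threshold of 0.05. Residual degrees of freedom were 3 and prior ones 6.80, and the lone wild-type library was taken to vary as much as libraries of the converted lines. The added count understates differences of low genes. Differences are log2 of the first-named group over the other, ± SE. edgeR 4.0.16 and DESeq2 1.42.0 ran on the recovered reads, and the limma step was tested on simulated data.

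Lengths, chromosomes and overlaps came from GENCODE M21 (GRCm38), which matched 82 of 83 members (not Ndufb11b) and 93.1% of table names. Copies were sought with BLAST 2.17.0. The members, gene lists and named-gene rule were chosen with earlier results of these data known. Named were members past the threshold, the 2 most abundant per kb of each complex, complex II, isoform sets, the 3 widest and 3 narrowest spreads, Taf1, and up to 4 called genes a list; Atp5a1, Atp5l, Ndufa2, Ndufa9, Ndufb1, Ndufb2, Ndufb11 and Ndufv3 were added after their values were seen. For 1 member, counted throughout, individual values are not reported here.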

Additional observations from a re-analysis of the deposited data

How the results depend on the processing

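Between conv-dSVA_F&D and conv-dSVA_D, conv-dSVA_F&D and conv-dSVA_F, conv-dSVA_F and conv-dSVA_D, and any of the 3, limma passed 1, 1, 1 and 3 subunit genes, and 0 against the wild type. With no filter on low values the counts were 0, 0, 0, 0 and 1 (Sdhc), and with no variance trend 0 in all 4 comparisons among converted lines, where all 15240 genes then gave 0, 0, 1 and 0 calls. DESeq2 gave 5, 5, 5, 9 and 5 (between pairs of groups it called 5.08% to 9.63% of the genes it gave an adjusted p), while edgeR differed only against the wild type (1). With only the libraries compared the count was 0 between conv-dSVA_F&D and conv-dSVA_D and 3 between conv-dSVA_F and conv-dSVA_D. The comparison of conv-dSVA_F with conv-dSVA_D gave 2 with a pseudocount of 5 and 2 with the length trend set equal. Where no share of all tested genes stands beside a count in this section, a change in it may only follow the fit's number of calls over all genes. With chromosome medians set equal, conv-dSVA_F&D and conv-dSVA_F gave 0, and the Cox4i1 difference turned to 0.20. Leaving out 1 library gave 0 to 5, 0 to 9, 0 to 3 and 0 to 9, and 0 to 8 against the wild type, the highest without conv-dSVA_F&D replicate 1 (without replicate 1 or 2 for conv-dSVA_F and conv-dSVA_D, and without replicate 2 for the wild type). The counts between conv-dSVA_F and conv-dSVA_D and among any of the 3 were 0 without conv-dSVA_F replicate 1 or either conv-dSVA_D library. The median against the wild type was -0.08 with the length trend set equal and -0.38 to -0.27 otherwise. No cause of the difference from the wild type, transcript length included, was tested. TMM scaling, a pseudocount of 0.5 and a mean of at least 50 changed none of these counts by over 1.5 times. No paired analysis was possible because the labels give no replicate numbers. With 2 libraries a line, 1 wild-type library and 3 residual degrees of freedom, small differences were not detectable.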

Other observations

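Glycolysis is the other main source of ATP in these cells. Of 17 glycolytic genes, 7 were higher in conv-dSVA_F&D against conv-dSVA_F (limma, threshold 0.05), with a median log2 difference of 0.76 over the list and 1.71% of all tested genes called higher. Hk1, a hexokinase, which phosphorylates glucose, rose by 1.24 ± 0.21 (adjusted p = 0.0183), Eno1 (enolase) by 1.02 ± 0.19 (adjusted p = 0.0237), and Slc2a1, a glucose transporter, by 0.76 ± 0.14 (adjusted p = 0.0231). Against conv-dSVA_D, Hk1 and Pfkm rose in conv-dSVA_F&D, and Tpi1 fell in conv-dSVA_F against conv-dSVA_D by 1.20 ± 0.21 (adjusted p = 0.0310). Between conv-dSVA_F and conv-dSVA_D 15 of the 17 differences were below 0, with a median of -0.48. Between converted and wild type the list's median was -0.17. The list summed to 401208.5 and 375490 normalized counts in conv-dSVA_F&D, 234869 and 320728 in conv-dSVA_F, 356329 and 398204 in conv-dSVA_D, and 372223 in the wild type. The lowest sum was thus that of conv-dSVA_F replicate 1. The calls against conv-dSVA_F were lost without conv-dSVA_F replicate 1 for Hk1, Eno1 and Slc2a1, and those against conv-dSVA_D without conv-dSVA_D replicate 1.

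Cytoplasmic ribosomal protein genes were lower in the converted lines than in the 1 wild-type library: 14 of 87 passed as lower and 1, Rps16, as higher, with 80 of 87 differences below 0 and a median of -0.49, against 0.525% of all tested genes called lower and 0.623% higher. They are short, and all genes outside the subunit set had medians of -0.46 under 500 bases and -0.28 at 500 to under 1000 bases. The part of length in this difference was not tested. Rpl39l fell by 1.09 ± 0.17 (limma, adjusted p = 0.0312). Of 11 two-cell-like markers, 6 were higher in conv-dSVA_F&D and 5 higher in conv-dSVA_F against conv-dSVA_D, where 1.96% and 1.08% of all tested genes were. Krt8 and Krt18, keratins of simple epithelia and trophoblast, were also higher in both lines against conv-dSVA_D, with Krt8 differences of 2.34 ± 0.43 (adjusted p = 0.0254) in conv-dSVA_F&D and 3.70 ± 0.43 (adjusted p = 0.0114) in conv-dSVA_F. Nanog, a pluripotency factor, fell by 0.65 ± 0.13 in conv-dSVA_F&D against conv-dSVA_D (adjusted p = 0.0282). Leaving out conv-dSVA_D replicate 1 ended the call of each gene named in this paragraph.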
